A study of Drosophila melanogaster with 2 samples.

Results

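The peaks described here lay between the starts of 2 protein-coding genes that are read away from each other. A peak was taken when its summit had a minus-strand protein-coding start on its left and a plus-strand one on its right, each no more than 500 bp away. This rule found 485 of the 3029 peaks on the chromosome arms (16.01%), from a conservative list of 3083 peaks in all. They made up 37.2% of the 1304 promoter peaks, those with any protein-coding start within 500 bp. The other 819 promoter peaks are set beside them below. The rule used positions only, so signal, sequence and gene content were not part of it. It does bound the spacing, to at most 1000 bp, and the summit's place between the starts.

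The data are chromatin immunoprecipitation sequencing of whole Drosophila melanogaster embryos aged 0 to 24 h. The strain carries a transgene for CG14667 fused to eGFP, and the fusion was precipitated with an antibody against GFP after sonication to fragments of 200 to 800 bp. There were 2 biological replicates of this 1 group, and both come from the same strain, so no condition, genotype or untagged strain could be compared. Whole embryos mix all tissues and stages, so a peak does not say in which cells it arose, and the fusion may differ from the unmodified protein in level or binding, which was not tested.

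CG14667 encodes a predicted zinc-finger DNA-binding protein. Head-to-head gene pairs share 1 stretch of upstream DNA, often called a bidirectional promoter. In the compact fly genome such pairs are common, and many of them hold housekeeping genes. The DNA between the starts can hold core promoter elements of both genes, binding sites for factors that serve both, and a region kept free of nucleosomes. In flies, the DNA replication-related element (DRE, bound by Dref), the sites of BEAF-32 and the M1BP motif are widespread at housekeeping promoters.

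The DNA under the strongest of these summits was rich in A and T. The 4 sequences that follow reach 50 bp to either side of the summit. They belong to the 4 strongest head-to-head peaks on 2L, 3L, 3R and X with no annotated exon in that window. They are plus-strand RefSeq sequence of dm6, at chr3L:5139443-5139543, chr3R:29736779-29736879, chr3R:15229482-15229582 and chr2L:13835403-13835503 in this order. Capitals mark runs of A and T of at least 6 bases.
Tcs5/CHMP2B: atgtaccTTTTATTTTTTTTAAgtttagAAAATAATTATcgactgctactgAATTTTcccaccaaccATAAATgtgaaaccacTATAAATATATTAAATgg
CG7601/CIA30: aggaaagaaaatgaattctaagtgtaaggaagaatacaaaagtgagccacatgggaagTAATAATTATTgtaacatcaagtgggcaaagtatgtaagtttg
Art3/mRpS10: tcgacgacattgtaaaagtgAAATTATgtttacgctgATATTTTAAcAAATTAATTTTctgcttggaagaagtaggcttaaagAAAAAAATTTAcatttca
mRpS23/CenG1A: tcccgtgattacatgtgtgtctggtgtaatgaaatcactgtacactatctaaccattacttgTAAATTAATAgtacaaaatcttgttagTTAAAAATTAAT

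GC content in these windows was 25.7%, 32.7%, 26.7% and 28.7%. The first holds the TATA box word TATAAA, and both the first and the second hold the homeodomain word TAATTA.

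The strongest head-to-head peak lay between Tcs5, whose protein takes part in modifying transfer RNA, and CHMP2B, a subunit of the ESCRT-III membrane-remodelling complex (3L, 5139340 to 5139651). Its signal was 1740.1 in the pooled list, 927 in replicate 1 and 838 in replicate 2. Its starts were 224 bp apart, and the summit lay 98 bp from the Tcs5 start and 126 bp from that of CHMP2B. Signals are the authors' own, taken relative to a control on an unstated scale, so they serve to rank peaks within a list. Whether the replicates' lists share a scale is not stated. Ratios of signals and differences between replicates below describe the deposited values and are not amounts of binding.

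The next peak, between CG7601 and CIA30, an assembly factor of mitochondrial complex I, had signals of 1422 pooled, 756 and 670 (replicates 1 and 2, in this order throughout). Between Art3, a protein arginine methyltransferase, and mRpS10, of the mitochondrial small ribosomal subunit, the values were 1327, 712 and 627. The peak between Chro, the chromatin protein Chromator, and Ssl1, a subunit of the general factor TFIIH, had 1322, 709 and 620. In each of these 4 the replicates stood in the same order, with replicate 1 slightly above replicate 2.

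The fifth, between mRpS23 and the Arf regulator CenG1A, had signals of 1310, 679 and 627 and the more lopsided place of 381 bp from the mRpS23 start and 111 bp from that of CenG1A. The seventh and the eighth were those of mRpL23 and CG9004, and of the tubulin acetyltransferase Atat and the receptor adaptor Shc. Their pooled signals were 1194 and 1188. At Atat/Shc the order of the replicates was the other way round, with 540 in replicate 1 and 647 in replicate 2.

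The 12 further pairs among the 20 strongest were CG13390/CG17294, fws/Lamtor3, CG1275/Elp5, CG3437/CG3552, brm/Arl1, CG5757/CG5098, CG7183/CG7988, Mkk4/SLIRP2, Mnat9/CG1792, Reps/l(2)gd1, CG8372/CG8360 and Mppe/pds5. They include brm, the ATPase of the SWI/SNF-type remodeller, with its neighbour Arl1, a Golgi GTPase. That peak had signals of 825, 389 and 440, and its summit was 132 bp from the brm start and 1 bp from the midpoint. Also among them are fws, a subunit of the COG tethering complex, Elp5 of Elongator, Mkk4, a kinase that activates JNK, and pds5, which acts with cohesin. Over the 20, signals ran from 707 to 1740.1 pooled, 376 to 927 in replicate 1 and 323 to 838 in replicate 2. All 20 were in both replicates' own lists, 16 of 20 were higher in replicate 1, and the log2 ratio of replicate 1 to replicate 2 ran from -0.26 to 0.31.

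These 20 were alike in layout. The starts of 15 of them were 201 to 300 bp apart, the nearer start of the pair lay 75 to 150 bp from the summit at 19, and the summit of 11 was within 25 bp of the midpoint. The exception in distance to the nearer start was Mnat9/CG1792, where the starts were 143 bp apart and the summit was 20 bp from that of Mnat9.

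Over all 485 peaks the starts were 62 to 878 bp apart, with a median of 309 bp and quartiles of 251 and 420 bp. A spacing of 201 to 300 bp was found at 191 of them (39.4%), a spacing of at most 200 bp at 33 and one over 500 bp at 67. The 485 peaks fell between 476 different pairs of starts, belonging to 473 pairs of genes, and 18 peaks shared their starts with another. At 400 of the peaks no further protein-coding start lay between the pair, and at 85 at least 1 did. The summit lay outside every annotated transcript at 350 peaks and inside one at 135.

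To set this against the genome, all 2511 pairs of neighbouring head-to-head protein-coding starts up to 1000 bp apart were taken from the annotation. Their median spacing was 297 bp, with quartiles of 156 and 494 bp, and 448 of them had at least 1 summit of the conservative list between the starts, at whatever distance. That is 17.8% of pairs (95% Wilson interval 16.4 to 19.4, which like the other intervals here covers counting error only). The share depended on the spacing. Of the 760 pairs at most 200 bp apart, 27 held a summit (3.55%, 2.45 to 5.12). Of the 519 pairs 201 to 300 bp apart, 162 did (31.2%, 27.4 to 35.3), and of the 1232 wider pairs 259 did (21.02%, 18.8 to 23.4). The pairs at most 200 bp apart include the repeated histone gene pairs on 2L, His4/His3 and His2B/His2A. All of these were empty, they were not taken out, and whether reads can be placed in such repeats was not tested.

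The step between the narrow and the middle class came at about 200 bp. The share was 0.962% for pairs up to 100 bp apart, 5.0% over 100 and up to 150 bp, and 9.03% at 151 to 200 bp. It was then 31.6% at 201 to 250 bp and 30.9% at 251 to 300 bp, and fell in wider gaps to 17.5% at 501 to 1000 bp. Longer gaps have more room for a summit, yet per kb of gap the order was the same at the narrow end: 0.365 summits per kb in gaps up to 200 bp, 1.22 in those of 201 to 300 bp and 0.411 in wider ones.

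Each replicate's own list showed the same steps. In replicate 1, 3.68% of the narrow pairs, 28.3% of those 201 to 300 bp apart and 17.9% of the wider ones held a summit. In replicate 2 these shares were 3.29%, 26.6% and 15.0%. A summit just outside the gap was more frequent at empty narrow pairs than at empty wider ones. Of 733 empty pairs at most 200 bp apart, 88 (12.01%) had a summit outside the gap but within 500 bp of its midpoint, and of 1330 wider ones 25 did (1.88%). The narrow pairs with a summit beside them thus outnumbered the 27 with one inside, and a wider gap leaves less of that window outside it. Because these are pairs of neighbouring starts, an empty narrow pair can belong to genes with a summit between other starts of theirs. For CG8372/CG8360, an empty pair of starts lay 57 bp apart, while their head-to-head peak lay between starts 215 bp apart. The shares by spacing were not repeated with 1 start per gene.

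**Figure D1:**
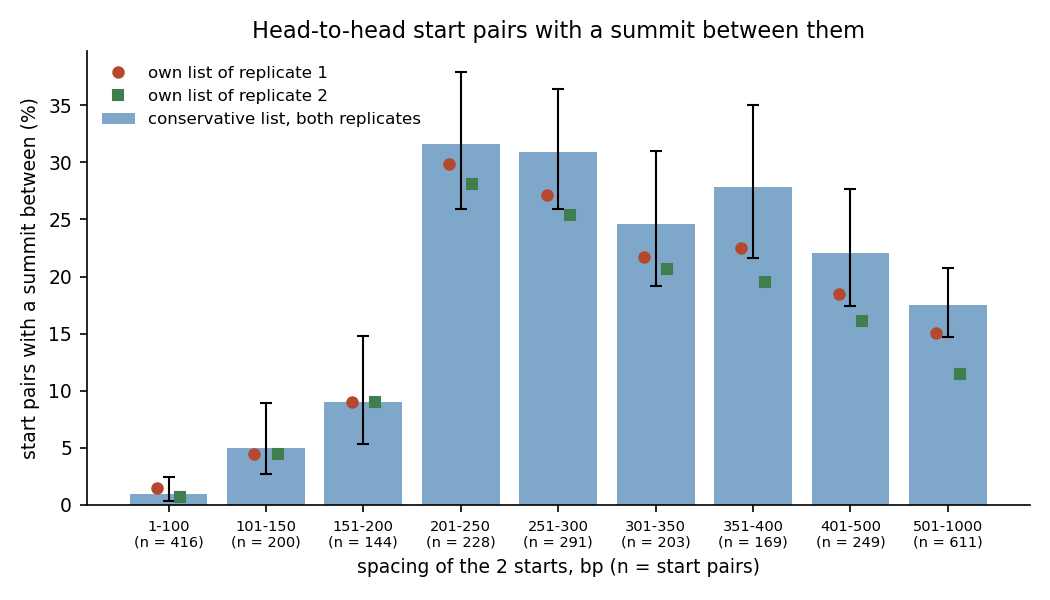
Share of neighbouring head-to-head start pairs (y axis, %) that held a peak summit, by the spacing of the starts (x axis, bp, with the number of pairs). Bars give the conservative list with 95% Wilson intervals, and points give each replicate's own list. The share was 9.03% at 151 to 200 bp and 31.6% at 201 to 250 bp.

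The 5 narrowest pairs with a summit were CG6005/CG14286 (62 bp), slmo/IPIP (68 bp), CG11882/Pglym78 (76 bp), CG10747/Pyroxd1 (87 bp) and U2af50/PIG-Q (104 bp). The peak at CG6005/CG14286 had signals of 109.9, 45.6 and 65.3. That at U2af50/PIG-Q, where U2af50 is the large subunit of the splicing factor U2AF, had 335, 211 and 124. The narrowest gap, whole, is at chr3R:19024031-19024091 (dm6, plus strand, RefSeq). It has a GC content of 49.2%, and capitals mark its one run of at least 6 A or T bases.
CG6005/CG14286: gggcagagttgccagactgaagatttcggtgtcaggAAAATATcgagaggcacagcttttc

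The 5 widest were Spn42Db/Spn42Dc (878 bp), Jheh3/CG43069 (784 bp), CG2182/Wdr33 (723 bp), CG14641/abs (705 bp) and Sfp26Ad/Gpdh1 (661 bp). Their pooled signals ran from 66.9 to 98.6, all below the median of the head-to-head peaks. The first pair encodes serine protease inhibitors, and neither it nor Jheh3/CG43069, where Jheh3 is a juvenile hormone epoxide hydrolase, was in either replicate's own list.

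Summits sat away from both starts of the pair. Distances are to these starts only. At the 85 peaks with another protein-coding start between them, that start may be closer to the summit, which was not measured. The nearer start lay at a median of 103 bp (quartiles 75 and 133 bp) and the farther at 204 bp. The minus-strand start was the nearer one at 243 peaks and the plus-strand start at 240, with 2 ties. The median distance from the midpoint was 46 bp, 261 summits (53.8%) were within 50 bp of it, and 353 (72.8%) lay in the central stretch between 0.25 and 0.75 of the way from start to start.

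The nearer distance cannot exceed the distance from a start to the midpoint, so in narrow gaps it has to be short. Counting summits per kb of gap at each distance from the nearer start allows for this only in part. Only gaps with a peak were counted, and the larger distances come from wider gaps, which hold more DNA per summit. So some fall in density at the larger distances is built in. The density was 0.840 per kb at 1 to 25 bp from the start, 2.78 at 51 to 75 bp and 5.35 in the 25 bp beyond 100 bp, and then 2.72 at 151 to 200 bp. At the 137 peaks in gaps wider than 400 bp, a summit has room to be far from both starts. The nearer start was 139 bp away there (median, quartiles 96 and 195 bp) and the farther 359 bp. Of these 137 summits, 56 were 75 to 150 bp from the nearer start and 17 were within 25 bp of the midpoint. Whether these values differ from those of summits placed evenly along such gaps was not tested.

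The strongest peaks were the most regular. Among the 50 strongest, the nearer start was 75 to 150 bp away at 44 and the summit was within 25 bp of the midpoint at 28. Among the 50 weakest these counts were 20 and 6. The 50 weakest include the 8 peaks with a signal under 40, all of which overlapped a stronger peak and were not taken out. The 2 sets also differed in spacing, with medians of 260 and 382 bp, and the shares due to spacing and to signal were not separated.

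The other promoter peaks were mostly upstream of their nearest start as well, 694 of 819 (84.7%). Their distance to it was longer, with a median of 183 bp, and 25.4% of those upstream were 75 to 150 bp away, against 281 of the 485 head-to-head peaks (57.9%). A second start on the far side bounds the distance in head-to-head gaps and not at the other promoters, so the shares are not on equal terms.

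**Figure D2:**
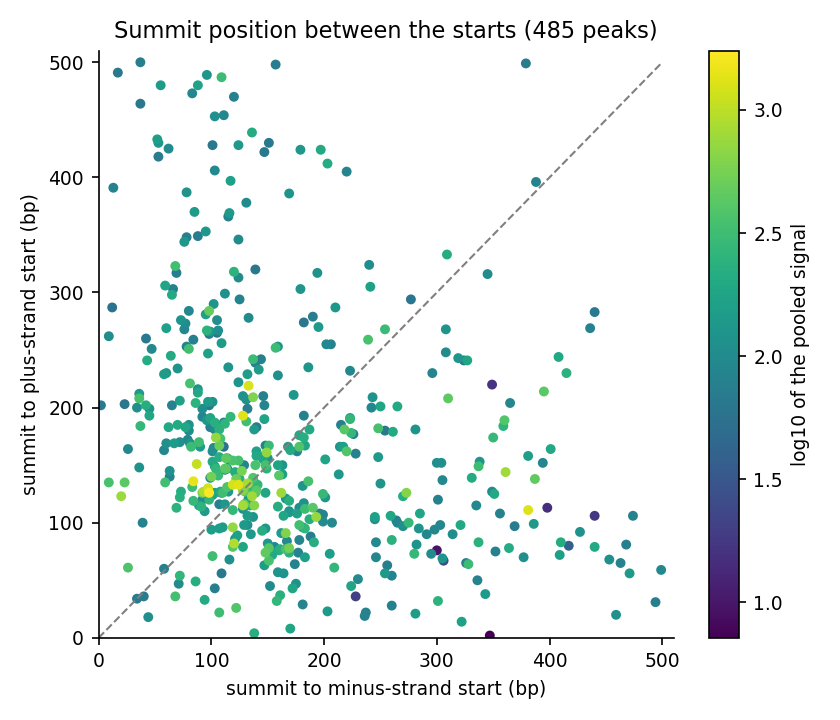
Distance in bp from each of the 485 summits to the minus-strand start (x axis) and the plus-strand start (y axis), coloured by log10 of the pooled signal, with equal distances on the dashed line. The points spread evenly to both sides of the line, 243 nearer the minus-strand start and 240 nearer the plus-strand start. Among the 20 strongest, the distance to the nearer start has a median of 108 bp.

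Replicates placed the summits alike. At the 330 peaks found in both replicates' own lists, the 2 replicate summits were a median of 18 bp apart (quartiles 8 and 36.75 bp), 279 were within 50 bp, and both lay between the starts at 324. The median distance to the nearer start was 106 bp in replicate 1 and 100 bp in replicate 2. Of 136 such peaks whose pooled summit was over 50 bp from the midpoint, 127 had both replicate summits on that side of it. The pooled list was made from both replicates, so this last count is not independent of them.

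Head-to-head peaks were slightly stronger than the other promoter peaks. Their pooled signal had a median of 138 (quartiles 95.8 and 240, range 7.18 to 1740.1), against 129 at the other promoter peaks and 106 at peaks with no protein-coding start within 500 bp. The ratio of medians to the other promoter peaks was 1.06 pooled, 1.05 in replicate 1 and 1.08 in replicate 2, far less than the spread among peaks. Against the peaks away from starts it was 1.30, 1.28 and 1.36.

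Head-to-head peaks became more frequent toward the top of the list. They were 79 of the 300 strongest arm peaks (26.3%), 19.4% of ranks 301 to 1000, 15.7% of ranks 1001 to 2000 and 11.0% of the last 1029. Promoter peaks of every kind became more frequent in the same direction, and among these alone the head-to-head share moved less, from 41.1% in the first class through 38.0% and 39.1% to 32.1%. They held 8 of the 20 largest signals.

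Signal varied with spacing. The median was 229 in gaps over 100 and up to 150 bp (13 peaks) and 226 at 151 to 200 bp (16 peaks), 165 and 185 in the 2 classes between 201 and 300 bp, and 108 over 500 bp. Across the 485 peaks, Spearman's rho between signal and spacing was -0.26, and -0.25 with each replicate's signal. Gaps over 100 and up to 200 bp thus seldom held a summit, and the few they held had high signals. The 4 peaks in gaps up to 100 bp had a median of 89.5.

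Most were called in each replicate alone. The overlap was 385 of 485 with the own list of replicate 1 (79.4%, 75.6 to 82.7) and 369 with that of replicate 2 (76.1%, 72.1 to 79.7). Over all arm peaks these shares were 72.6% and 64.5%. In both lists were 330 (68.04%, 63.8 to 72.0), against 56.2% of all arm peaks and 61.9% of the other promoter peaks. The difference from the other promoter peaks was 6.14 percentage points (95% Newcombe interval 0.756 to 11.4). It stood in replicate 2 (7.46 points, 2.42 to 12.3) more than in replicate 1 (0.871, -3.80 to 5.34), and 61 peaks were in neither list. The log2 ratio of replicate 1 to replicate 2 had a median of 0.14 and an SD of 0.45 over the 478 peaks with a value in both ranked lists.

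The weakest signals came from peaks beside a stronger one. The 5 lowest were at CROT/CG12877 (7.18), CG8152/Xpc (9.61), vir/Ice1 (14.6), Gfat2/Moca-cyp (16.3) and DnaJ-H/Sirt1 (17.4). Each of them overlapped a stronger peak of the same list, as did 11 head-to-head peaks in all and all 8 with a signal under 40. Replicate signals there belong to the best-matching replicate peak, which can be that of the neighbour: at CROT/CG12877 they were 52.3 and 36.2. Of the 474 that overlapped no stronger peak, the lowest was 56.1, at twin/cav.

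**Figure D3:**
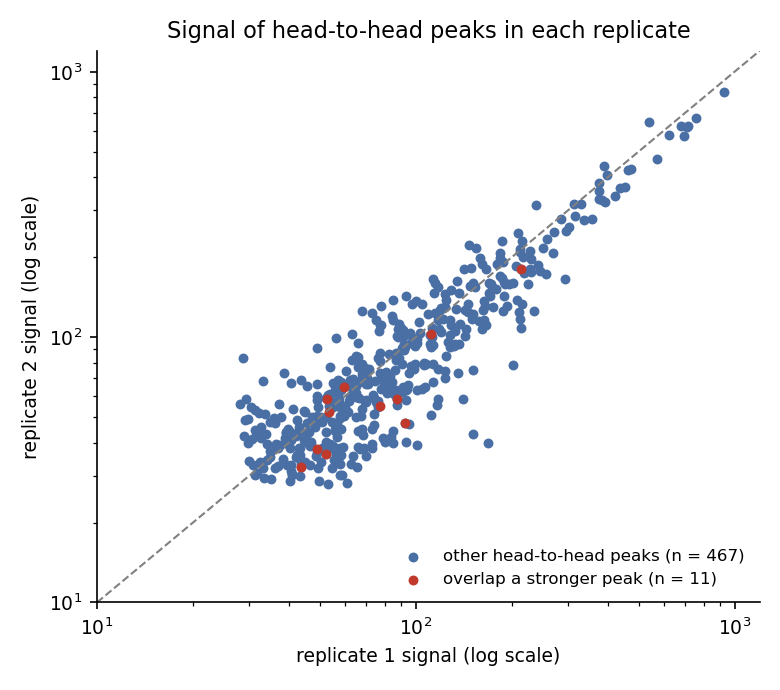
Signal of the head-to-head peaks in replicate 1 (x axis) and replicate 2 (y axis), both on log scales, with equality on the dashed line; red points are the 11 peaks that overlap a stronger peak of the list. The 20 strongest pooled peaks run from 376 to 927 in replicate 1 and from 323 to 838 in replicate 2.

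At the edge of the rule, 6 peaks had their farther start 491 to 500 bp away, with signals of 66.7 to 96.1. Just outside it, 2 peaks at 506 and 507 bp had signals of 152 and 12.3. With both starts required within 250 bp, 302 peaks remained in place of 485.

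The X chromosome held few of these peaks. They were 51 of its 618 peaks (8.25%, 6.33 to 10.7), against 16.7% to 19.3% on 2L, 2R, 3L and 3R, which held 96, 93, 114 and 131. X has 397 of the head-to-head start pairs, and 48 of them held a summit (12.1%, 9.24 to 15.7). The autosomal arms had 16.7% (2L), 17.5% (2R), 22.1% (3L) and 19.7% (3R). None of the 12 pairs on chromosome 4 held one, which allows a share of up to 24.2% (upper Wilson bound).

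Head-to-head summits stood in a deep dip of GC content. It averaged 30.4% within 50 bp of the summit and 46.2% in windows of the same width centred 300 bp to either side, a difference of -15.8 percentage points (SE 0.566 over 485 peaks). The summit window was the lower one at 426 peaks (87.8%). The difference was -9.21 (SE 0.458) at the other promoter peaks, where the summit windows held 34.0% and the flanks 43.2%. So the larger difference came from both ends, a lower GC content at the summit and a higher one in the flanks, where transcribed parts of both genes often lie.

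The dip was deeper at the strongest peaks than at the weakest, and deeper at the favoured spacing than in gaps over 400 bp. It was -22.5 points (SE 1.45) at the 50 strongest and -8.25 (SE 1.80) at the 50 weakest. At a spacing of 201 to 300 bp it was -21.1 (SE 0.786), and over 400 bp it was -9.04 (SE 1.04), where the flanking windows often fall inside the gap. Flanks in genes and flanks in the gap were not separated in these values. Nor were signal and spacing, since the 50 strongest and 50 weakest had median spacings of 260 and 382 bp. The 50 weakest also include the 8 peaks with a signal under 40, all of which overlapped a stronger peak.

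A low GC content at the midpoint was common to head-to-head gaps over 200 bp and lower in those with a summit. In gaps of 201 to 300 bp, the 162 with a summit had 24.8% GC at the midpoint (SE 0.468) and the 357 without had 29.5% (SE 0.496). In wider gaps these values were 27.9% (SE 0.492) and 30.8% (SE 0.280). Within a gap the summit did not follow the most AT-rich stretch closely. At the 468 peaks in gaps over 150 bp, the richest 51-bp window was a median of 54 bp from the summit and 41.5 bp from the midpoint, and of 221 peaks over 50 bp off the midpoint it was closer to the summit at 67.

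**Figure D4:**
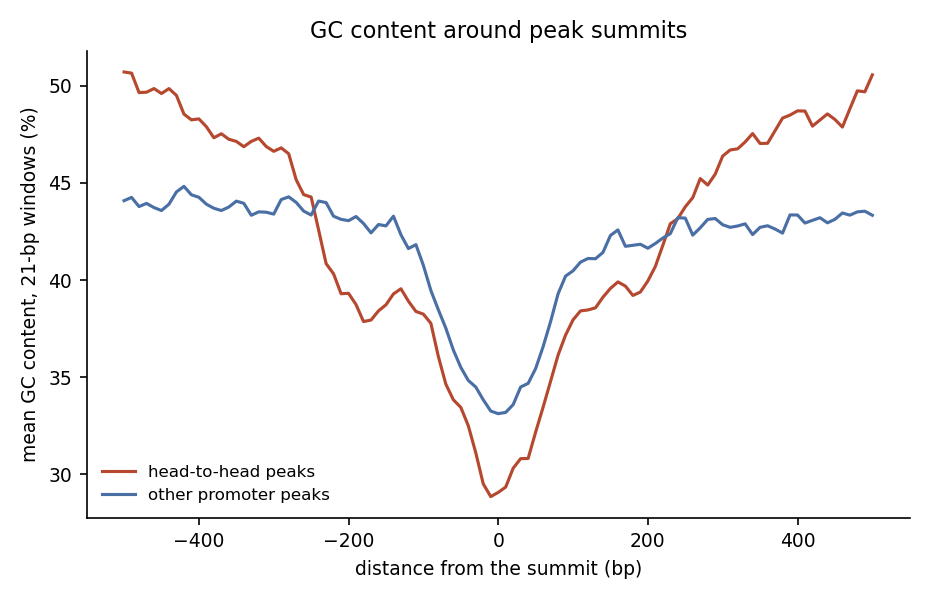
Mean GC content in 21-bp windows (y axis, %) against the distance from the summit (x axis, bp; negative to the left on the plus strand) for head-to-head and other promoter peaks. At the summit it was 29.1% and 33.1%, and 400 bp to the left it was 48.3% and 44.3%.

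Of 10 sequence words searched on both strands within 50 bp of the summit, the 2 made only of A and T stood furthest above the other promoter peaks in percentage points. TATAAA, the core of the TATA box, was in 32.2% of head-to-head windows (28.2 to 36.4), 22.7% of other promoter windows (19.97 to 25.7) and 9.07% of flanking windows. TAATTA, the core bound by many homeodomain proteins, was in 13.4% (10.7 to 16.7), 9.04% (7.26 to 11.2) and 4.74% of the same windows, with overlapping intervals at the 2 kinds of peak. Both words become more frequent wherever GC content is low, and how much of these differences that accounts for was not tested. In the 476 gaps with a head-to-head peak, the median TATAAA site was 115.5 bp from the nearer start. Of 545 such sites, 75 were within 50 bp of a start, and whether any acts as a TATA box was not tested. The 8-base words most frequent at these summits relative to the flanks were likewise of A and T alone. AAATAAAA, for example, was in 12.9% of the windows on the arms where words were ranked and 11.0% on the arms held back, against 2.04% of flanks there.

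The housekeeping promoter words were about as frequent at these summits as at the other promoter peaks. The DRE core TATCGATA was in 9 of 485 windows (1.86%, 0.979 to 3.49), against 2.08% at the other promoter peaks, 1.75% in flanks and 0.290% at peaks with no start within 500 bp. The share was 8.66% in windows of 100 bp to either side, which reach the starts of many pairs, and 2.89% and 3.52% in the own lists of replicates 2 and 1. CGATA, the BEAF-32 core, which is also contained in the DRE core, was in 18.1% (15.0 to 21.8) against 18.8% of other promoter windows, 14.6% of flanks (12.6 to 17.0) and 11.1% of windows with no start near. The M1BP motif GGTCACACT was in 2 windows. One of the 9 peaks with a DRE core, between dsd and Tusp, had signals of 129.6, 56.8 and 66.8. It is the strongest of those on 2L, 3L, 3R and X whose window holds no annotated exon. The window is at chr3R:27607399-27607499 (dm6, plus strand, RefSeq), with the DRE core in capitals.
dsd/Tusp: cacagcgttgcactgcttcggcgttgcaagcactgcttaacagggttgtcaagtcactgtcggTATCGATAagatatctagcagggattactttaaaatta

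These words were denser elsewhere in the same gaps. A DRE core was found somewhere between the starts at 90 of the 485 peaks (18.6%), and of the 100 sites 10 lay within 50 bp of the summit. That is 0.209 sites per kb near summits and 0.757 per kb in the rest of the gaps. The median site was 36.5 bp from a start and 126.5 bp from the summit. The E-box word CAGCTG showed the same layout, with 0.335 and 0.983 per kb, and CGATA had 2.64 and 5.14. TATAAA had the opposite one, with 4.33 and 3.02 per kb, and TAATTA had 1.76 and 1.30.

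The gap between Atat and Shc shows this layout. Its 251 bases, chr3L:9426759-9427009 (dm6, plus strand, RefSeq), start next to the Atat start on the left and end next to the Shc start on the right, with the DRE core in capitals. The core begins 83 bp to the right of the summit and ends 43 bp before the Shc start.
Atat/Shc: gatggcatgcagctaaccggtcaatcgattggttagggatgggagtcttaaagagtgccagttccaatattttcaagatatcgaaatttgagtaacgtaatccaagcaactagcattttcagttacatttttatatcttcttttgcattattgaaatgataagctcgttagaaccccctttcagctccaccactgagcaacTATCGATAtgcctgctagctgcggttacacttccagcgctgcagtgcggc

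The same places were found without a peak. In the 1330 empty gaps over 200 bp, the median DRE core was 39.5 bp from a start, and its density was 1.46 per kb at 26 to 50 bp and 0.0950 in the 25 bp beyond 100 bp. In the 476 gaps with a head-to-head peak these densities were 1.39 and 0.0496. A DRE core was in 21.9% of occupied gaps over 200 bp (18.2 to 26.05) and 18.1% of empty ones (16.1 to 20.3). The M1BP motif was in 3.80% (2.35 to 6.08) and 7.44% (6.15 to 8.98). Of all the words, M1BP differed most in proportion between occupied and empty gaps. These shares count a word anywhere in the gap, and the 2 sets were not matched for length. Gaps over 300 bp were 259 of the 421 occupied and 973 of the 1330 empty ones, and a longer gap has more room for a word.

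**Figure D5:**
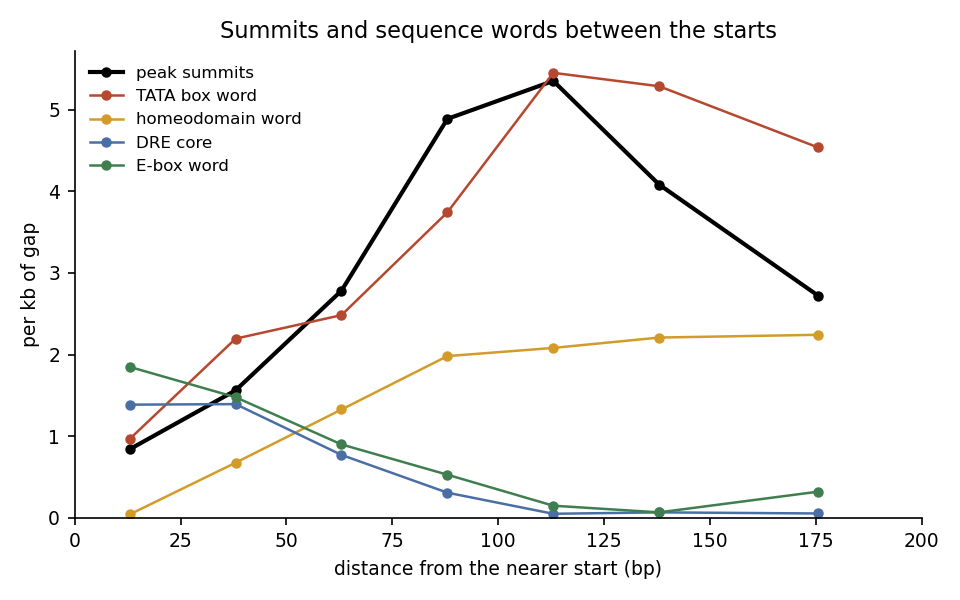
Peak summits and sequence words per kb of gap (y axis) against the distance from the nearer start (x axis, bp, plotted at the middle of each class), in the gaps that hold head-to-head peaks. Summits reach 5.35 per kb in the 25 bp beyond 100 bp, where TATAAA has 5.45 and the DRE core 0.0496 per kb.

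The peaks touched 979 genes. Of the 4875 genes that are in a neighbouring head-to-head pair, 945 (19.4%) were in a pair of starts with a head-to-head peak. The 12 gene lists below, drawn up from gene symbols, are read against that share. Genes named only by CG and a number were 29.9% of the genes at these peaks, 34.3% of the paired genes and 43.7% of all genes with protein-coding starts.

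RNA polymerase II subunits, TAFs and other general factors, and Mediator subunits had the highest share of the 12 lists, 18 of 48 paired genes (37.5%, 25.2 to 51.6). Besides Ssl1 they include Taf5, a TFIID subunit paired with Pex6 (418, 186 and 229), and MED27, paired with elm (347, 166 and 180). Of DNA repair genes 10 of 29 (34.5%, 19.9 to 52.7) were there. Among them were mei-41, the fly ATR kinase, paired with TH1 (415, 245 and 178), Irbp, the Ku70 subunit, paired with mgr (324, 172 and 158), and Ercc1, an excision repair nuclease subunit, paired with SMC2 (238, 100.5 and 137).

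Cytoplasmic ribosomal protein genes had 17 of 53 (32.1%, 21.1 to 45.5), with RpL34b/CG8132 the strongest (442, 228 and 212), then RpS27/Nup37 (351, 186 and 167) and RpL32/CG7943 (279.8, 166 and 111). Vesicle transport had 24 of 86 (27.9%, 19.5 to 38.2). It is the only one of the 12 lists with both genes of a pair, at Exo84/Vps2 and Cog3/Sec5. Exo84 and Sec5 are exocyst subunits, Vps2 belongs to ESCRT-III and Cog3 to the COG complex, and neither peak was in both replicates' own lists.

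The lower ends of these 4 intervals lay above the 19.4% of all paired genes, those of DNA repair (19.9%) and vesicle transport (19.5%) only just. With 12 lists read side by side, and chosen with earlier results known, the shares are a description. The lists were also not matched for the spacing of their pairs, with which the share of pairs holding a summit changed. In the list of Polycomb, trithorax and remodelling genes, brm/Arl1 was followed by E(z)/Cnep1r2 (416, 229 and 181), where E(z) is the histone H3 methyltransferase of Polycomb repression. Next was Ino80/Aptx (353, 197 and 158). Of insulator and cohesin genes 4 of 12 were at these peaks (33.3%, 13.8 to 60.9): Chro, pds5, Cp190 paired with CG4338 (349, 216 and 133) and SA1.

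In each of the other 7 lists the interval spanned the background share of 19.4%. Mitochondrial ribosomal proteins, in 3 of the 8 strongest pairs, had 12 of 59 paired genes in all (20.3%, 12.04 to 32.3). Splicing factors had 8 of 39 (20.5%), led by SNRPG/mthl1 (388, 183 and 208), and the respiratory chain and ATP synthase 9 of 45 (20%), led by ND-ASHI/Fum1 (299, 135 and 162). Proteasome subunits had 7 of 25 (28.0%, 14.3 to 47.6), led by Npc1a/Prosalpha6 (213, 169 and 40.02), where the replicates lay far apart. Transfer RNA synthetases had 6 of 23 (26.1%), led by GluProRS/AP-1sigma (506, 271 and 249), Polycomb, trithorax and remodelling genes 4 of 23 (17.4%), and translation factors 3 of 27 (11.1%, 3.85 to 28.1), led by SC35/eRF3 (161, 85.9 and 60.7).

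The gene for the tagged protein is itself in a narrow head-to-head pair. The starts of hd and CG14667 are 60 bp apart, no summit lay between them, and the nearest summit of the list was 3277 bp from the start of CG14667.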

How the data were processed

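The data are peak lists from chromatin immunoprecipitation sequencing of 2 biological replicates of 1 group. Per the labels and the file headers' listings, the authors made them from filtered alignments to dm6 with a control. Which aligner and peak caller they used is not given in the sources used here. No read counts were used, so sequencing depth is unknown and signals carry no interval. The deposited lists give a signal per peak, an IDR score (from the irreproducible discovery rate, which rates how well a peak's rank repeats), −log10 of a q value, −log10 of the global IDR in the ranked lists, and the summit's offset from the peak start. Pooled signals are from the conservative list. Replicate signals are from each replicate's own ranked list, at the overlapping peak (1 bp or more) with the nearest summit.

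Protein-coding transcript starts (19630, of 13968 genes) are from Ensembl release 115 and sequence from the RefSeq dm6 assembly, and coordinates are 1-based. Summit windows reached 50 bp to either side, with flanking windows of the same width centred 300 bp away. Shares carry 95% Wilson intervals and differences of shares Newcombe intervals, for counting error only. Peaks are not replicates, so no p-value was computed. Python 3.11.15, numpy 2.4.6, pandas 2.3.3 and scipy 1.17.1 were used, and the functions were tested on simulated positions. Named pairs are those of the 20 strongest peaks, the 5 narrowest, 5 widest and 5 weakest, up to 3 per gene list, and CG14667, except 1 of the 20 that is not reported here; others, such as twin/cav, were named after their values were seen. The members, gene lists and sequence words were chosen with earlier results of these data known. Alternatives were another peak list, lists of single replicates, other distance limits, start sets and windows, a stricter IDR and other overlap rules.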

Additional observations from a re-analysis of the deposited data

How the results depend on the processing

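With starts within 250 bp there were 302 peaks (485 within 500 bp), and between 327 and 522 or, within 1000 bp, 595 under the others tried. The median spacing, 309 bp, was 298 to 302 bp in the lists that leave out a replicate, 263 and 362 bp with limits of 250 and 1000 bp, 303 bp with 1 start per gene, 314 bp with starts of all biotypes, 298 bp at a global IDR of 0.001 or less and 306 bp without peaks that overlap a stronger one, an alternative chosen after seeing the data. The central share of summits, 72.8%, was 71.7% to 77.0% without a replicate, 87.4% within 250 bp and 62.4% within 1000 bp. The ratio of signals to other promoter peaks, 1.06, was 1.32 within 250 bp. With the signals of replicate 1 or replicate 2 alone, at the same pooled peaks, it was 1.05 and 1.08. These are the values given above, and the peaks still came from both replicates. The share in both own lists, 68.04%, was 63.4% for the longer list, 75.5% within 250 bp, 93.3% at the stricter IDR and 57.3% with 50% reciprocal overlap. The share of pairs with a summit, 17.8%, was 19.5% for the longer list, 13.9% to 15.7% without a replicate, 15.3% with all biotypes and 11.7% at the stricter IDR. The GC difference, -15.8 points, was -17.1 to -15.7 without a replicate, -19.6 within 250 bp, -13.6 within 1000 bp, -17.6 at the stricter IDR, and -17.2 and -12.4 with windows of 25 and 100 bp to either side. The DRE share, 1.86%, was 2.87% for the longer list, 2.89% to 3.52% without a replicate, 1.32% within 250 bp, 2.69% within 1000 bp and 8.66% with windows of 100 bp. The cause was not tested, except that a shorter distance limit by construction removes wide pairs. Of 76 values under alternatives, 42 stayed within the replicate SD (for the share in both lists, its Wilson interval, and for the number of peaks, within 1.5 times). A change of direction was possible only for the signal ratio and the GC difference, and neither changed direction. No paired analysis was possible because there is 1 group. The lists hold only peaks above the authors' thresholds, so a gap without a summit may hold binding below them.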
